A study of Mus musculus with 12 samples.

Results

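The interaction of PDGFRβ blockade with minocycline was described across the autosomal and mitochondrial genes of the mouse retina. For each gene it is the log2 change with minocycline in retinas given the blocking antibody minus the log2 change with minocycline in retinas given control IgG, (APB5+Mino − APB5) − (IgG+Mino − IgG). A negative value means that the change with the drug was lower in APB5 than in IgG retinas, and a positive value that it was higher. Members were all genes on chromosomes 1 to 19 and the mitochondrial genome, 46180 of the 50559 genes in the table. Of these, 20064 had enough counts to be tested, 20047 of them autosomal and 17 mitochondrial, among 21228 genes tested in all.

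All mice were WT C57BL6/J and retinas were taken at 28 days of age. IgG retinas came from pups given 30 µg of isotype IgG on day 1, and APB5 retinas from pups given 30 µg of APB5, a rat monoclonal antibody against mouse PDGFRβ, on day 1. IgG+Mino and APB5+Mino pups had the same respective injections and then daily intraperitoneal minocycline at 45 mg/kg from day 5 to day 27. Each group held 3 RNA-Seq libraries from 3 mice, and whether a library held 1 or both retinas of a mouse is not given. APB5 blocks a receptor in the whole animal for a limited time and deletes no gene, and the mice were of both sexes.

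PDGFB released by endothelial cells binds PDGFRβ on pericytes and draws them along growing vessels, and vessels that lack pericytes leak and become inflamed. Minocycline is a tetracycline antibiotic that crosses into neural tissue, dampens microglial activation and binds bacterial and, more weakly, mitochondrial ribosomes. When the retina is injured, Müller glia switch on Gfap and cytokine targets of the transcription factor STAT3, microglia leave their resting state, and complement and antigen presentation genes are induced. The interaction addresses the question of which genes answered minocycline differently in retinas with and without PDGFRβ blockade.

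Total counts were between 52740545 and 59411044 per library, and 26897 to 28479 genes were detected. APB5 replicate 3 scored 100.4 on the leading principal component (48.5% of the variance), and the highest score among the other 11 libraries was 16. The Xist RNA was at 47210 counts or more in all 3 libraries of the IgG group and in replicate 3 of each APB5-treated group, and at 38 counts or fewer elsewhere. IgG and IgG+Mino thus did not overlap in this female transcript, so that sex and minocycline cannot be told apart in the IgG arm, and an interaction within one sex could not be computed. Pdgfrb, the antibody's target, was not deleted, and in CPM (read counts scaled to a common library total) it stood at 12.8 to 20.1 CPM in IgG, 14.5 to 18.5 CPM in IgG+Mino, 15.4 to 38.7 CPM in APB5 and 14.3 to 15.1 CPM in APB5+Mino retinas.

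Of the 20064 genes, 3 had an interaction that passed the test, all of them lower: Glycam1, Lad1 and Fgf2os. Passing meant a log2 value of at least 1 in size together with an adjusted p no higher than 0.05, from edgeR's quasi-likelihood test fitted to the 12 libraries and adjusted by Benjamini-Hochberg across all 21228 tested genes. That is 0.0141% of the genes tested for lower values and 0% for higher ones, and the smallest adjusted p of a higher value was 0.0831. At an unadjusted p of at most 0.05, 1854 members had a lower and 1634 a higher interaction, beside 9.08% and 8.06% of all genes tested. DESeq2 called 383 genes, 152 of them higher, and voom with sample quality weights called 991, 534 of them higher, and 338 genes were common to both, 88.3% of the DESeq2 calls and 34.1% of the voom calls. The 3 genes were called by both other tools as well. With the replicate number as a block within each antibody arm, Glycam1 and Lad1 were called (adjusted p = 0.0204 for each) and Fgf2os was not (adjusted p = 0.0962), while the predicted gene Gm32460, named after its value was seen, was called in its place.

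Glycam1, a mucin-like ligand that L-selectin on leukocytes binds on specialised venules, had the lowest p. It stood at 0.228, 0.0878 and 0.484 CPM in IgG, 0.237, 0.194 and 0.183 CPM in IgG+Mino, 4.77, 4.78 and 6.51 CPM in APB5 and 0.0357, 0.0390 and 0.0188 CPM in APB5+Mino retinas. The APB5 libraries lay above all others and the APB5+Mino libraries below all others, with no overlap. At most 3 reads per library were counted in APB5+Mino retinas, so the level there was at least 95.3-fold lower than the APB5 mean of 5.36 ± 1.0 CPM (SD, n = 3). The fitted interaction was −6.94 ± 0.76 (SE, log2, adjusted p = 0.0156), and −6.19 with the APB5+Mino level set to 3 counts per library. The gene lies on the minus strand of chromosome 15, 103471186 to 103473515 (GRCm39).

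Lad1 encodes ladinin 1, a protein of the filaments that anchor epithelia to basement membranes. Its level was 2.61, 2.70 and 2.82 CPM in IgG, 3.22, 4.21 and 3.09 CPM in IgG+Mino, 9.63, 15.1 and 19.2 CPM in APB5 and 2.12, 3.10 and 2.69 CPM in APB5+Mino retinas. The 3 APB5 libraries were the highest of the 12, and the APB5+Mino range overlapped both IgG groups. The change with minocycline was −2.47 ± 0.25 in APB5 and 0.37 ± 0.25 in IgG retinas, an interaction of −2.84 ± 0.35 (SE, log2, adjusted p = 0.0225). Lad1 lies on the plus strand of chromosome 1, 135746332 to 135761080, and its downstream neighbour on the same strand is Tnnt2, at 135763738 to 135780315. Tnnt2, the troponin T of heart muscle, was also among the 10 lower genes with the smallest p, and its values were 2.14, 1.67 and 1.83 CPM in IgG, 2.13, 2.01 and 1.43 CPM in IgG+Mino, 4.36, 4.65 and 5.90 CPM in APB5 and 1.04, 1.25 and 1.38 CPM in APB5+Mino retinas. APB5 was highest and APB5+Mino lowest with no overlap, but the interaction of −2.01 ± 0.32 did not pass the test (adjusted p = 0.0963).

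Fgf2os is a noncoding RNA transcribed from the strand opposite Fgf2, the gene of basic fibroblast growth factor, an angiogenic and neuronal survival factor. Fgf2os stood at 0.280, 0.246 and 0.656 CPM in IgG, 0.837, 0.951 and 0.384 CPM in IgG+Mino, 5.58, 6.93 and 12.4 CPM in APB5 and 0.214, 0.468 and 0.301 CPM in APB5+Mino retinas. APB5 libraries lay far above the other 9, which overlapped, and the interaction was −5.53 ± 0.69 (SE, log2, adjusted p = 0.0225). Fgf2 stood at 25, 30 and 21.8 CPM in IgG, 26, 30.1 and 27.8 CPM in IgG+Mino, 78.8, 105 and 155 CPM in APB5 and 27.5, 37.6 and 32.8 CPM in APB5+Mino retinas. The 3 APB5 libraries were again above the other 9, and with minocycline Fgf2 fell in APB5 retinas (log2 change −1.79 ± 0.22, adjusted p = 0.00520), yet its interaction of −1.92 ± 0.31 had an adjusted p of 0.0963. Fgf2 lies on the plus strand of chromosome 3, 37402473 to 37464257 and Fgf2os on the minus strand at 37389481 to 37403889, with 1417 bases shared. The libraries kept strand, but whether the authors' counting used it is not stated, so reads of these overlapping genes cannot be told apart with certainty.

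Calls depended on single libraries. The number called was 0 without IgG replicate 1, APB5+Mino replicate 1 or APB5+Mino replicate 3, 1 without IgG replicate 2, 5 without APB5 replicate 1, 8 without IgG+Mino replicate 1, 34 without IgG replicate 3, 68 without APB5 replicate 3 and 111 without APB5 replicate 2. None of the 3 named genes passed without IgG replicate 1 (adjusted p 0.0936 to 0.101), APB5+Mino replicate 1 (0.103) or APB5+Mino replicate 3 (0.12 to 0.152). Lad1 and Fgf2os were also lost without IgG replicate 2 (0.12) or IgG+Mino replicate 2 (0.0803), and Lad1 without IgG+Mino replicate 3 (0.0527). Without APB5 replicate 3 Glycam1, Lad1 and Fgf2os passed, at log2 values of −6.80 for Glycam1, −2.62 for Lad1 and −5.15 for Fgf2os.

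**Figure D1:**
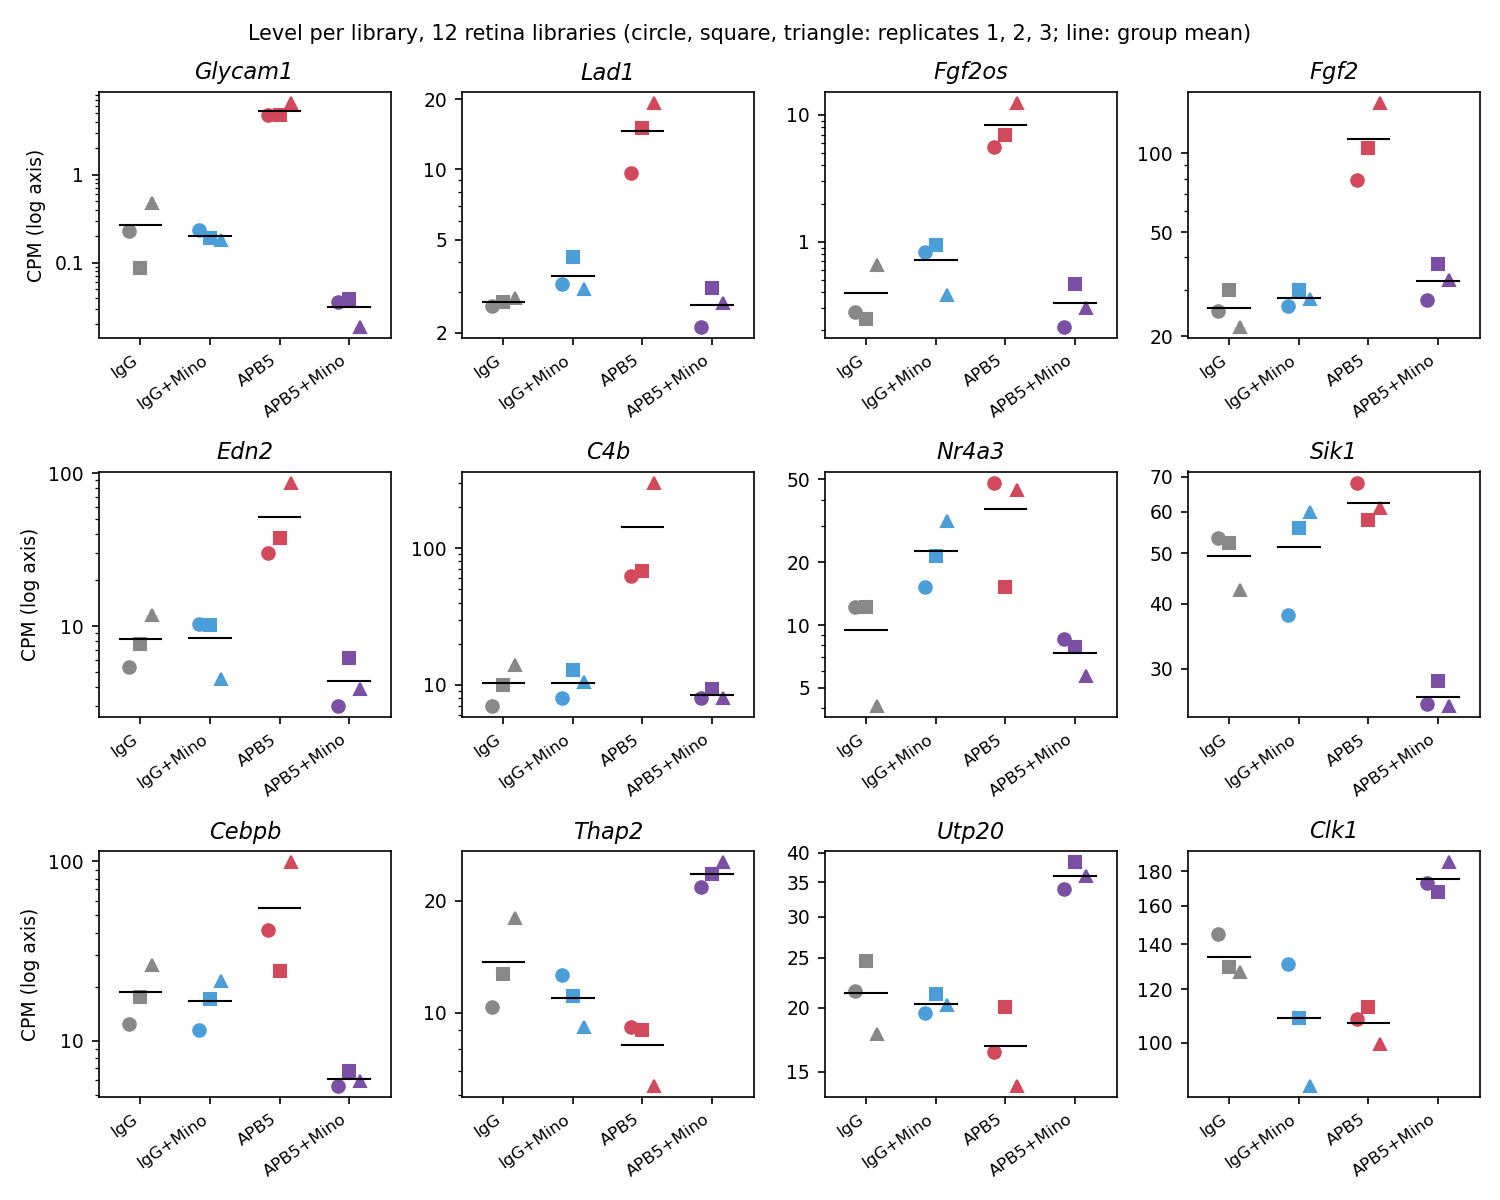
Level of 12 genes in each of the 12 retina libraries, in CPM on log axes, by group; circles, squares and triangles are replicates 1, 2 and 3 and the line is the group mean. APB5 had the highest mean in the panels from Glycam1 to Cebpb, with its 3 libraries above the other 9 for Glycam1, Lad1, Fgf2os, Fgf2, Edn2 and C4b, and APB5+Mino had its 3 libraries above the other 9 for Thap2, Utp20 and Clk1.

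The 250 bases before the annotated start of the 3 called genes are shown because the interaction turns on them. They were searched on both strands for the STAT motif TTCNNNGAA, the interferon response core GAAANNGAA and the cyclic AMP response element TGACGTCA. Sequences are from RefSeq (GRCm38.p6), 5′ to 3′ on the strand of the gene, and capitals mark motif matches. The windows are chr15:103565082-103565331 on the minus strand for Glycam1, chr1:135818348-135818597 on the plus strand for Lad1 and chr3:37349842-37350091 on the minus strand for Fgf2os.
Glycam1: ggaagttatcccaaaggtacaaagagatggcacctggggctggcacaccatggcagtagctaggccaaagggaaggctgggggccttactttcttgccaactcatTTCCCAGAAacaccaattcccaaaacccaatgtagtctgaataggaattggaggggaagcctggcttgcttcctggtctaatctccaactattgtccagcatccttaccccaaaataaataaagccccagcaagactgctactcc
Lad1: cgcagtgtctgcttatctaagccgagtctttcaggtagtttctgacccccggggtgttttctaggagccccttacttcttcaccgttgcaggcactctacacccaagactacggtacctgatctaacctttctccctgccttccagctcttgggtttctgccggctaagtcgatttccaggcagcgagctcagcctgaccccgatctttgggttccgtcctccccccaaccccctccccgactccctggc
Fgf2os: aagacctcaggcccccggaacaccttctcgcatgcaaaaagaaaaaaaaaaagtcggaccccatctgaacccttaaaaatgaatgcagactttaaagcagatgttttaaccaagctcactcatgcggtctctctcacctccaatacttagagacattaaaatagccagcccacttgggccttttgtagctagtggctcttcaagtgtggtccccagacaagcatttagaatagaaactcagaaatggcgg
The Glycam1 window holds 1 STAT motif, whose first base is 145 bases before the start, and the windows of Lad1 and Fgf2os hold no match of the 3 motifs. Among the 13818 promoters of tested genes, 6.02% held the STAT motif, 6.12% the interferon core and 2.45% the cyclic AMP element, and a match is not evidence that a factor binds.

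The remaining lower genes named by p (those with a mean of at least 1 CPM) were Ccno, Antxr2, 2900057B20Rik, Ndufa4l2 and Sik1, none of which passed the test (adjusted p 0.0831 to 0.108), though DESeq2 and voom called all of these and Tnnt2 and Fgf2. Ccno encodes cyclin O, needed for making many cilia per cell, and stood at 3.42, 2.63 and 2.33 CPM in APB5 retinas, 0.857, 0.644 and 0.546 CPM in APB5+Mino and 1.30 to 1.97 CPM in the 6 IgG-treated libraries (interaction −2.31 ± 0.35). Antxr2, a receptor for collagen and for anthrax toxin, stood at 26.6, 27.5 and 16.8 CPM in APB5 retinas, 6.39, 7.47 and 7.23 CPM in APB5+Mino and 7.74 to 11.1 CPM in the IgG-treated libraries (interaction −1.78 ± 0.29). Ndufa4l2, a mitochondrial protein induced by low oxygen, stood at 13.4, 10.3 and 12.3 CPM in APB5 retinas, 1.97, 1.44 and 1.73 CPM in APB5+Mino and 2.17 to 5.36 CPM in the IgG-treated libraries (interaction −2.43 ± 0.42). For these 3 genes APB5 was the highest group and APB5+Mino the lowest, with no overlap, and for 2900057B20Rik (interaction −1.74 ± 0.30) APB5 alone stood apart. 2900057B20Rik shares 6915 bases with Zbtb7c on the other strand, so its reads cannot be told apart from those of Zbtb7c with certainty. Sik1 differed in form. This kinase, induced by cyclic AMP, stood at 53.4, 52.4 and 42.5 CPM in IgG, 38.1, 55.9 and 60 CPM in IgG+Mino, 68.2, 57.9 and 61.1 CPM in APB5 and 25.7, 28.4 and 25.4 CPM in APB5+Mino retinas. The APB5+Mino libraries lay below the other 9 while APB5 lay above IgG and overlapped IgG+Mino, with an interaction of −1.29 ± 0.23. The interaction passed the test without IgG replicate 3 for Ccno (−2.29), Antxr2 (−1.90), 2900057B20Rik (−1.90) and Ndufa4l2 (−2.94), without IgG+Mino replicate 1 for Sik1 (−1.45), without APB5 replicate 1 for Fgf2 (−2.12), without APB5 replicate 2 for Ccno (−2.36), Antxr2 (−1.66), 2900057B20Rik (−1.76), Ndufa4l2 (−2.53), Sik1 (−1.35), Tnnt2 (−2.05) and Fgf2 (−1.98) and without APB5 replicate 3 for Ccno (−2.45), Antxr2 (−2.0), 2900057B20Rik (−1.71), Ndufa4l2 (−2.43), Sik1 (−1.33), Tnnt2 (−1.89) and Fgf2 (−1.64).

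On the higher side the 10 genes with the smallest p were Gm46218, Gm35959, Thap2, Gm12258, Zfp493, Utp20, Cntrl, Gm34605, Gm9392 and Zkscan16, with interactions of 1.12 to 2.33 and adjusted p of 0.0831 to 0.117 in edgeR's quasi-likelihood test, and DESeq2 and voom called all 10. In 9 of the 10 the APB5+Mino libraries lay above the other 9, and in Gm9392 the APB5 libraries lay below the other 9. On the other strand, Gm9392 shares 554 bases with Gtf2h1 and Gm46218 shares 2886 with Echdc1, so these reads cannot be told apart with certainty. Thap2, which carries a THAP-type zinc finger, stood at 10.3, 12.7 and 18 CPM in IgG, 12.6, 11.1 and 9.19 CPM in IgG+Mino, 9.16, 9.02 and 6.38 CPM in APB5 and 21.7, 23.6 and 25.4 CPM in APB5+Mino retinas. The APB5+Mino libraries of Thap2 stood clear above the rest, and its APB5 libraries were lowest by a narrow margin under IgG+Mino replicate 3 (interaction 1.85 ± 0.30). Thap2 shares 958 bases with Zfc3h1 on the other strand. Utp20, a component of the complex that processes ribosomal RNA, stood at 21.5, 24.6 and 17.8 CPM in IgG, 19.5, 21.3 and 20.2 CPM in IgG+Mino, 16.4, 20.1 and 14.1 CPM in APB5 and 33.9, 38.3 and 36.1 CPM in APB5+Mino retinas. Here APB5 overlapped both IgG groups and APB5+Mino alone was higher (interaction 1.17 ± 0.21). The centrosomal gene Cntrl had the same form, with 8.96 to 12.3 CPM in APB5, 21.6 to 27.3 CPM in APB5+Mino and 11.2 to 14.7 CPM in the IgG-treated libraries. The interaction passed the test without IgG replicate 3 for Gm46218 (1.87), Gm35959 (2.32), Thap2 (1.60), Utp20 (1.29) and Zkscan16 (1.70), without IgG+Mino replicate 1 for Gm46218 (2.04), without APB5 replicate 2 for Gm46218 (1.83), Gm35959 (2.45), Thap2 (1.92), Gm12258 (1.24), Zfp493 (2.44), Utp20 (1.31), Cntrl (1.31), Gm34605 (2.26) and Gm9392 (1.65) and without APB5 replicate 3 for Gm46218 (1.82), Gm35959 (2.35), Thap2 (1.67), Gm12258 (1.06), Zfp493 (2.05), Utp20 (1.03), Gm34605 (1.95), Gm9392 (1.36) and Zkscan16 (1.64).

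Taken arm by arm, the interaction lay mostly in the APB5 arm. With minocycline, 1115 members fell and 440 rose in APB5 retinas, beside 5.44% and 2.29% of all genes tested. In IgG retinas edgeR's quasi-likelihood test called 0 members in each direction (0% and 0% of genes tested), with a smallest adjusted p of 0.229, while DESeq2 called 16 and voom 144. At an unadjusted p of at most 0.05, 858 members were higher and 741 lower in the IgG arm, beside 4.28% and 3.72% of all genes tested. Since no member passed the adjusted threshold in the IgG arm, none could pass it in both arms with opposite signs. Among the 3488 members with an unadjusted interaction p of at most 0.05, the change was larger in size in the APB5 arm for 3105 and in the IgG arm for 383. Of the 1854 lower ones, 1596 were also lower in the APB5 arm at that p and 160 were higher in the IgG arm. Of the 1634 higher ones, 1375 were higher in the APB5 arm and 147 lower in the IgG arm. The changes in both arms, which share no library, correlated across the 20064 genes at Pearson 0.256 and Spearman 0.323, and genes are not independent replicates. The number called in the APB5 arm, 1555, rested on the libraries used, with 2616 without APB5 replicate 2, 610 without APB5 replicate 3, 909 without APB5+Mino replicate 1, 121 without APB5+Mino replicate 2 and 160 without APB5+Mino replicate 3.

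**Figure D2:**
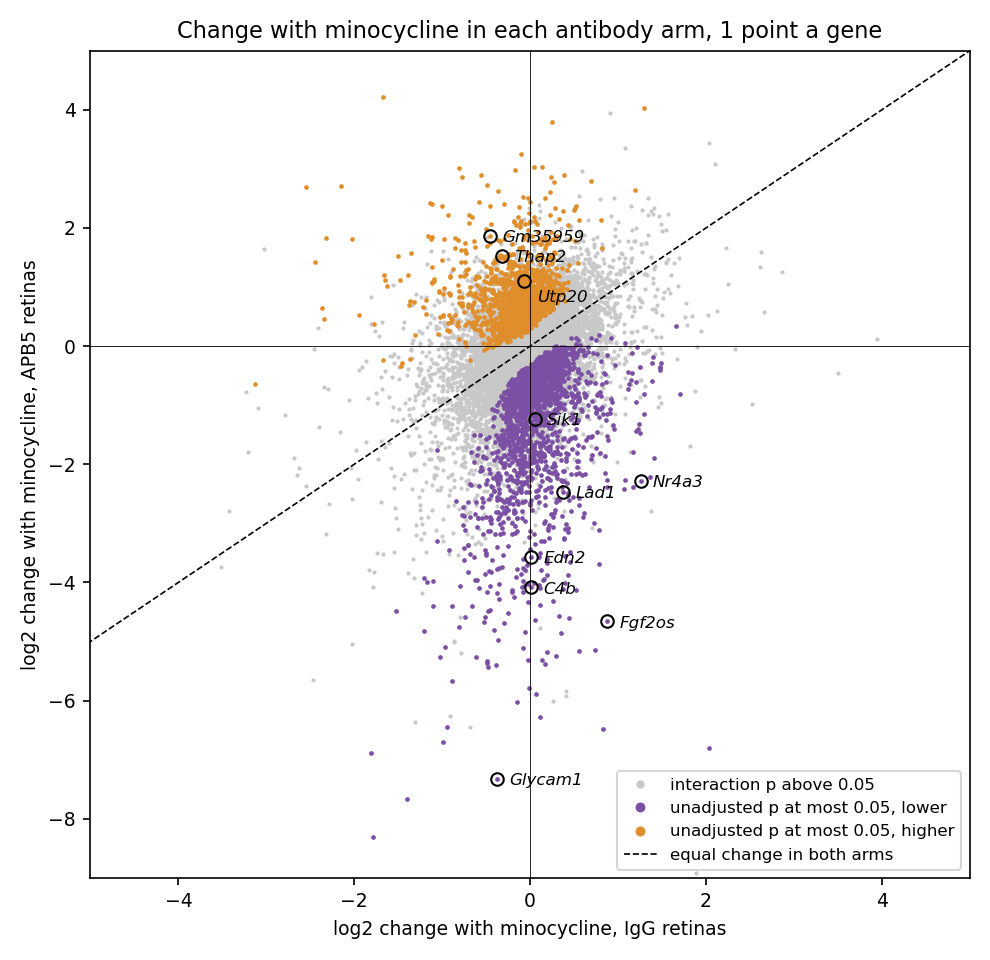
Log2 change with minocycline in IgG retinas (x axis) against that in APB5 retinas (y axis), 1 point for each of the 20064 genes; purple and orange mark an unadjusted interaction p of at most 0.05 and the dashed line equal change. Coloured points spread along the y axis near 0 on the x axis, with Glycam1 at −7.33 in APB5 retinas, and 18 genes lie outside the axes.

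Which group carried the interaction was counted as the genes for which its 3 libraries all lay above or all below the other 9. APB5+Mino stood apart far more often than any other group, high for 1976 members and low for 1775 (9.77% and 8.75% of all genes tested). APB5 stood apart high for 535 and low for 199 (2.61% and 0.98%), IgG high for 284 and low for 248 (1.41% and 1.22%), and IgG+Mino high for 81 and low for 64 (0.386% and 0.33%). Among the 3488 members with an unadjusted interaction p of at most 0.05, APB5+Mino was high in 911 and low in 754, and APB5 high in 368 and low in 113. APB5 high together with APB5+Mino low, the form of Glycam1 and Tnnt2, occurred in 90 members, and the reverse, the form of Thap2, in 50. Among genes with an interaction at that p, APB5+Mino thus lay outside the range of all other libraries more often than APB5 did. The count for APB5 rose from 734 to 1138 without IgG replicate 3, 1467 without APB5 replicate 1 and 2140 without APB5 replicate 2, and that for APB5+Mino from 3751 to 5903 without APB5+Mino replicate 1.

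**Figure D3:**
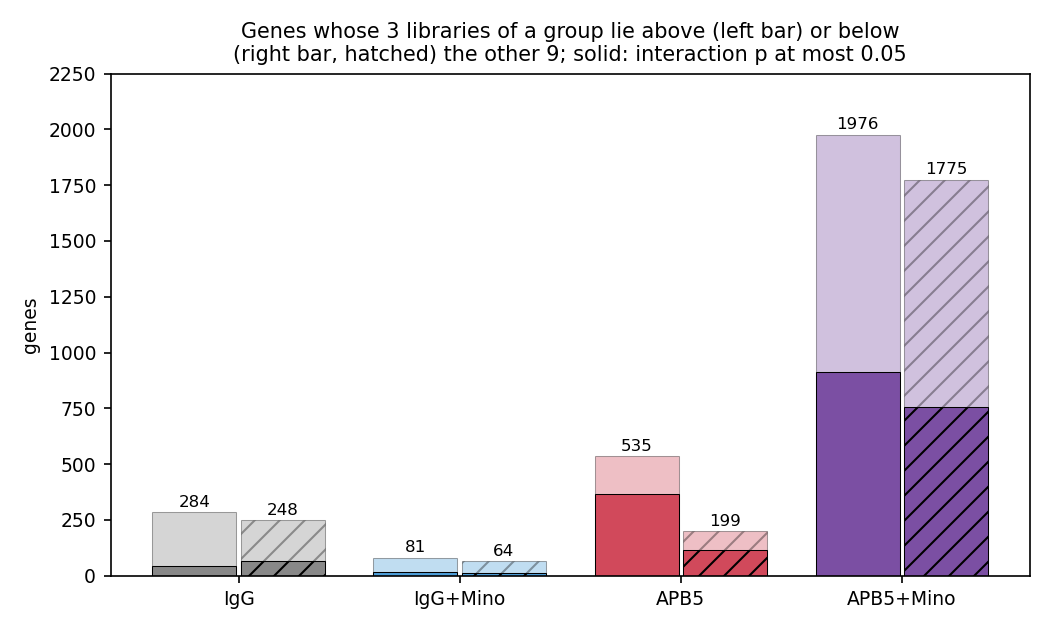
Number of genes, on the y axis, for which the 3 libraries of a group all lay above (plain bar) or all below (hatched bar) the other 9 libraries, for each of the 4 groups; the solid part holds genes with an unadjusted interaction p of at most 0.05. The APB5+Mino bars, 1976 and 1775, are the tallest.

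Gene lists were described by how many members had an unadjusted interaction p of at most 0.05 and by their median, beside a median of −0.03 over all members tested. At that p 9.08% of all genes tested were lower and 8.06% higher, the shares against which each list count stands. Libraries hold bulk tissue, so fewer cells of a type and less RNA per cell cannot be told apart. For the complement, STAT3, gliosis, microglial, macrophage, chemokine, inflammasome, interferon and antigen presentation lists, APB5 replicate 3 was the library whose removal moved the median furthest, and medians are also given without it.

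The injury response of Müller glia and astrocytes had the largest differences in drug response among the glial lists. All 20 STAT3 injury genes, all 20 reactive gliosis genes and all 19 complement genes had an interaction below 0, and 14, 13 and 13 of them an unadjusted p of at most 0.05. With edgeR's quasi-likelihood test 0 of them were called, while DESeq2 called 6, 1 and 2 and voom 9, 5 and 8, and DESeq2 gave no adjusted p for 7, 6 and 9. Medians were −2.37, −2.10 and −2.32, and without APB5 replicate 3 they were −1.22, −0.90 and −0.89. With minocycline, 14, 15 and 18 of these genes fell in APB5 retinas, against 5.44% of all genes tested, and 10, 8 and 13 fell with the replicate block. The IgG arm medians were 0.03, −0.15 and −0.38. Edn2, the peptide endothelin 2 that stressed photoreceptors release (chromosome 4, 120018403 to 120024557), stood at 5.38, 7.71 and 11.8 CPM in IgG, 10.4, 10.2 and 4.51 CPM in IgG+Mino, 29.9, 37.6 and 86.8 CPM in APB5 and 3.0, 6.22 and 3.86 CPM in APB5+Mino retinas. APB5 libraries lay above all others, and the APB5+Mino range overlapped both IgG groups (interaction −3.57 ± 0.65, adjusted p = 0.114, and −2.98 without APB5 replicate 3). Gfap, the intermediate filament of reactive glia (chromosome 11, 102778159 to 102791738), stood at 52.8, 53 and 46.3 CPM in IgG, 50.3, 40.9 and 55.3 CPM in IgG+Mino, 129.6, 146 and 1028 CPM in APB5 and 27.8, 39 and 27.7 CPM in APB5+Mino retinas. Its APB5 libraries were highest and its APB5+Mino libraries lowest, with no overlap (interaction −3.73 ± 0.87, adjusted p = 0.132, and −2.10 without APB5 replicate 3). Serpina3n, Lcn2 and A2m, secreted products of reactive glia, had 1 library far above the rest, with 25.2, 21.5 and 1365 CPM of Serpina3n in APB5 retinas. The interaction passed the test without APB5 replicate 2 for Edn2 (−3.75), Gfap (−4.15) and A2m (−5.18) and without APB5 replicate 3 for Edn2 (−2.98), Gfap (−2.10) and A2m (−2.20).

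Among complement genes C4b, a component of the classical cascade (chromosome 17, 34947354 to 34962912), had the lowest p. It stood at 6.98, 9.88 and 14 CPM in IgG, 7.96, 12.7 and 10.5 CPM in IgG+Mino, 62.3, 68 and 302 CPM in APB5 and 8.05, 9.36 and 8.02 CPM in APB5+Mino retinas. APB5 lay above all others while the other 3 groups overlapped, and the interaction was −4.10 ± 0.73 (adjusted p = 0.108), and −2.98 without APB5 replicate 3. C4b has a near-identical copy, C4a, and reads may be split between them. C3, the hub of the cascade, stood at 6.50, 8.74 and 182 CPM in APB5 retinas, 1.66, 1.60 and 1.96 CPM in APB5+Mino and 1.54 to 2.87 CPM in the IgG-treated libraries, so that APB5 alone was apart (interaction −5.54 ± 1.40, and −2.45 without APB5 replicate 3). C1qa, a microglial subunit of C1q, which starts the classical cascade, stood at 14.2, 13 and 121 CPM in APB5 retinas, 3.59, 3.39 and 3.79 CPM in APB5+Mino and 6.39 to 10.1 CPM in the IgG-treated libraries, highest in APB5 and lowest in APB5+Mino with no overlap (interaction −3.40 ± 0.93, and −1.57 without APB5 replicate 3). Cfi, which cleaves C3b and C4b, had interactions of −3.63 ± 0.83 over 12 libraries and −2.65 without APB5 replicate 3, and the inhibitor Serping1 −3.67 ± 0.97 and −1.78. Cfb, of the alternative pathway, had at most 3 counts in every APB5+Mino library and stood at 0.669, 0.602 and 11.1 CPM in APB5 and 0.0529 to 0.193 CPM in the IgG-treated libraries. The interaction passed the test without APB5 replicate 2 for C4b (−4.44), C3 (−6.05) and Serping1 (−4.13) and without APB5 replicate 3 for C4b (−2.98), C3 (−2.45), Serping1 (−1.78) and C1qa (−1.57). The study named C4b, Cfi, C3, C1qa, Edn2, Fgf2, Glycam1, Ndufa4l2, Lyz2 and Icam1 from these libraries, so their direction here is not independent evidence. By qPCR it also reported Aif1, Casp1, Cfb, Edn2, Fgf2, Gfap, Glycam1, Lyz2 and Tyrobp as raised with APB5 and reduced with minocycline. Whether the qPCR used retinas of the same mice is not given.

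In microglial genes APB5+Mino often stood below both IgG groups as well as below APB5. Of 16 homeostatic microglial genes 15 had an interaction below 0 and 9 an unadjusted p of at most 0.05, with a median of −1.63 (−0.73 without APB5 replicate 3), and APB5+Mino stood lowest with no overlap for 8. Of 19 disease-associated microglial genes, all had a value below 0, 16 at that p, with a median of −2.02 (−0.63), and APB5+Mino stood lowest for 12, where 8.75% of all genes tested did so. Cx3cr1, the fractalkine receptor of resting microglia, stood at 2.61, 2.33 and 5.01 CPM in IgG, 1.18, 2.10 and 1.35 CPM in IgG+Mino, 2.80, 2.88 and 8.78 CPM in APB5 and 0.250, 0.176 and 0.490 CPM in APB5+Mino retinas. APB5 overlapped IgG and APB5+Mino lay below every other library, with a change with minocycline of −3.97 ± 0.57 in APB5 (adjusted p = 0.00639 in edgeR's quasi-likelihood test) and −1.10 ± 0.49 in IgG retinas and an interaction of −2.87 ± 0.73 (adjusted p = 0.149). P2ry12, a purine receptor that marks resting microglia, stood at 0.234 to 0.848 CPM in APB5+Mino and at 0.837 to 2.64 CPM in the other libraries. Fcrls, another resting marker, stood at 2.11, 2.77 and 22.8 CPM without and 0.197, 0.215 and 0.226 CPM with minocycline in APB5 retinas, and Trem2, a lipid receptor of activated microglia, at 2.51, 2.34 and 20.9 CPM and 0.589, 0.507 and 0.565 CPM. Both were lowest in APB5+Mino with no overlap, with interactions of −4.95 ± 1.15 and −3.32 ± 1.04 (−3.06 and −1.52 without APB5 replicate 3). Tyrobp, the adaptor of Trem2, had −3.41 ± 0.98 and Aif1, which encodes Iba1, −2.02 ± 1.08, and without APB5 replicate 3 the values were −1.62 for Tyrobp and −0.36 for Aif1. The interaction passed the test without APB5 replicate 2 for Fcrls (−5.39) and without APB5 replicate 3 for Fcrls (−3.06).

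Macrophage genes depended mostly on APB5 replicate 3. Of 13 tested, 11 were below 0 and 5 at an unadjusted p of at most 0.05, against 9.08% of all genes tested. The median of −1.77 became −0.10 without that library. The summed level of the list was 16.3 to 225 CPM in APB5 and 10.1 to 19.2 CPM in the other groups. Lyz2, lysozyme of myeloid cells, stood at 10.4, 3.61 and 149 CPM in APB5 retinas, 0.714, 0.546 and 0.603 CPM in APB5+Mino and 0.546 to 1.93 CPM in the IgG-treated libraries, and it shares sequence with Lyz1. Its interaction of −5.50 ± 1.51 passed the test without APB5 replicate 2 (−6.06) and was −2.58 without APB5 replicate 3. The chemokine list had 7 of 11 lower at that p, where 9.08% of all genes tested were, and a median of −1.73 (−0.53 without APB5 replicate 3). In the inflammasome and interleukin 1 list 3 of 14 were lower and 1 higher, where 8.06% of all genes tested were higher, with a median of −0.66 (−0.30). The exception was Aim2, a sensor of cytosolic DNA, at 3.07, 2.81 and 2.68 CPM in IgG, 1.69, 1.85 and 1.63 CPM in IgG+Mino, 2.17, 3.03 and 2.91 CPM in APB5 and 2.80, 2.63 and 2.64 CPM in APB5+Mino retinas. IgG+Mino was here the group that stood apart, below the other 9, and the interaction was 0.72 ± 0.26 (adjusted p = 0.220). Aim2 shares 17008 bases with Cadm3 on the other strand, so reads of these genes cannot be told apart with certainty. Casp1, the inflammasome protease, had an interaction of −1.95 ± 1.42 (−0.27 without APB5 replicate 3) at 0.434 to 3.52 CPM in APB5 and at most 0.173 CPM elsewhere. Neutrophil and T cell genes were near the limit of detection, with 2 of 17 tested, S100a8 at 0 in 3 libraries and at most 1.73 CPM, and Cd3e at 0 in 9 libraries. Genes of antibody binding and B cells had 5 of 9 lower at an unadjusted p of at most 0.05 and a median of −2.64 (−0.97 without APB5 replicate 3).

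Antigen presentation and interferon response genes followed the same direction. All 19 antigen presentation genes were below 0 and 13 at an unadjusted p of at most 0.05 (median −1.63, and −0.79 without APB5 replicate 3). With minocycline 15 fell in APB5 retinas (12 with the replicate block), against 5.44% of all genes tested. Cd74, the chaperone of class II molecules, stood at 4.10, 3.41 and 45.9 CPM in APB5 retinas, 0.250, 0.312 and 0.490 CPM in APB5+Mino and 0.419 to 1.97 CPM in the IgG-treated libraries (interaction −4.78 ± 1.29, and −2.56 without APB5 replicate 3). Tapbp, which loads peptides onto class I molecules, had a smaller but tighter difference, at 84.2, 75.8 and 97.4 CPM in APB5 retinas, 51.4, 52 and 54.4 CPM in APB5+Mino and 69.8 to 90.5 CPM in the IgG-treated libraries, with APB5+Mino lowest and no overlap (interaction −0.56 ± 0.16). Of 24 interferon response genes, 13 were lower and 1 higher at that p, and the median was −1.32 (−0.74 without APB5 replicate 3). Isg15, a ubiquitin-like protein, stood at 1.47, 1.11 and 1.68 CPM in IgG, 1.09, 1.87 and 0.822 CPM in IgG+Mino, 2.85, 3.08 and 8.26 CPM in APB5 and 0.589, 0.507 and 0.923 CPM in APB5+Mino retinas. Bst2, which tethers virus particles, stood at 2.66, 2.27 and 3.96 CPM in IgG, 2.91, 3.14 and 1.99 CPM in IgG+Mino, 5.08, 4.84 and 26.3 CPM in APB5 and 1.45, 1.48 and 1.92 CPM in APB5+Mino retinas. Both were highest in APB5 with no overlap, Bst2 was lowest in APB5+Mino with no overlap, and the interactions were −2.64 ± 0.63 and −2.76 ± 0.78 (−1.99 and −1.49 without APB5 replicate 3).

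The promoters of Isg15 and Bst2 are shown because the interferon response core was frequent in this list. The windows are chr4:156200819-156201068 and chr8:71537473-71537722, both on the minus strand (RefSeq, GRCm38.p6), and capitals mark the interferon core GAAANNGAA and, in Bst2, also the STAT motif TTCNNNGAA.
Isg15: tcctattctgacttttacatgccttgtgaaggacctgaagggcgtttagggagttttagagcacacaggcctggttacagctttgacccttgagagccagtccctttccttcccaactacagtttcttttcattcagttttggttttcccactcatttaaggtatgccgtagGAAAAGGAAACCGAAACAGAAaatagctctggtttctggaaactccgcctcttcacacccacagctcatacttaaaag
Bst2: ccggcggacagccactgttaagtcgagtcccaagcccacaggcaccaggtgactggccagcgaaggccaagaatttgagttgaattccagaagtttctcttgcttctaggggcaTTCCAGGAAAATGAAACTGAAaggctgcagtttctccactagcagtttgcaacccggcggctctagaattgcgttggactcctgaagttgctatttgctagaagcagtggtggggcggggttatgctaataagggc
Isg15 holds 3 interferon cores, with first bases 78, 72 and 66 before the start, which overlap one another. Bst2 holds 1 STAT motif at 136 and 2 interferon cores at 130 and 124 bases before the start, also overlapping. Of 19 promoters in the interferon list 10 held the core (52.6%), against 6.12% among tested genes, while the STAT motif was found in 1 of 17 promoters of the STAT3 injury list (5.88%), against 6.02%.

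Lists of the vessel wall had medians between −1.28 for matrix and −0.32 for endothelial cell genes. Of 12 endothelial adhesion genes 6 were lower at an unadjusted p of at most 0.05, Glycam1 among them, against 9.08% of all genes tested. Their median was −0.90 (−0.56 without APB5 replicate 3). Of 20 endothelial cell genes 7 were lower at that p, with a median of −0.32 (−0.18). Cldn5, the tight junction protein of the blood-retina barrier, stood at 10.6, 10.8 and 22.4 CPM in IgG, 12.8, 11.2 and 10.8 CPM in IgG+Mino, 22.1, 17.5 and 22.7 CPM in APB5 and 7.46, 5.99 and 5.97 CPM in APB5+Mino retinas. APB5+Mino was lowest with no overlap and APB5 overlapped IgG replicate 3, and with minocycline Cldn5 fell in APB5 retinas (log2 change −1.68 ± 0.26, adjusted p = 0.00679 in edgeR's quasi-likelihood test), with an interaction of −1.35 ± 0.36 (adjusted p = 0.156) that passed without IgG replicate 3 (−1.79). Icam1, an adhesion molecule for leukocytes, had −2.48 ± 0.85 (−1.52 without IgG+Mino replicate 1), and Kdr, the main VEGF receptor, −0.86 ± 0.29. Pericyte and smooth muscle genes had a median of −0.83 (−0.38 without APB5 replicate 3) with 5 of 16 lower at that p, and collagens and matrix −1.28 (−0.44) with 11 of 23. Rgs5, a pericyte regulator of G protein signalling, stood at 67.2, 71.5 and 74 CPM in IgG, 48.9, 52 and 58.4 CPM in IgG+Mino, 89, 87.9 and 164 CPM in APB5 and 44, 48.9 and 40.8 CPM in APB5+Mino retinas, highest in APB5 and, by a narrow margin over IgG+Mino, lowest in APB5+Mino (interaction −0.94 ± 0.29, and −0.60 without APB5 replicate 3). Ccn2, a matrix protein induced by TGFβ and by YAP, stood at 79.4, 53.7 and 218 CPM in APB5 retinas, 35.3, 23.4 and 31.8 CPM in APB5+Mino and 59.1 to 90.9 CPM in the IgG-treated libraries (interaction −1.99 ± 0.57, and −1.20 without APB5 replicate 3).

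Immediate early genes, which neurons and glia switch on within minutes of a stimulus, had the lowest median of the lists with over 10 genes tested. All 22 were below 0, 18 at an unadjusted p of at most 0.05, where 9.08% of all genes tested were lower and 8.06% higher. The median was −2.54 (−1.27 without APB5 replicate 3). In APB5 retinas 17 fell with minocycline (12 with the replicate block), against 5.44% of all genes tested. APB5+Mino stood lowest with no overlap for 11, Sik1 among them, while APB5 stood highest for 1, against 8.75% and 2.61% of all genes tested. Nr4a3, an orphan nuclear receptor (chromosome 4, 48045153 to 48086447), stood at 12.2, 12.3 and 4.08 CPM in IgG, 15.3, 21.5 and 31.5 CPM in IgG+Mino, 48.2, 15.2 and 44.5 CPM in APB5 and 8.61, 7.86 and 5.67 CPM in APB5+Mino retinas. The values of the arms had opposite signs, with −2.28 ± 0.48 in APB5 (adjusted p = 0.0124 in edgeR's quasi-likelihood test) and 1.26 ± 0.46 in IgG retinas (adjusted p = 0.587), APB5+Mino overlapped IgG replicate 3, and the interaction was −3.54 ± 0.66 (adjusted p = 0.117). Fosl2 of the AP-1 family had −2.60 ± 0.56 and the stress factor Atf3 −1.74 ± 0.39, and the interaction passed the test without APB5 replicate 2 for Nr4a3 (−3.92), Fosl2 (−2.97) and Atf3 (−2.01). Among clock genes, of which 4 of 19 were lower and 1 higher at that p (median −0.16, and −0.25 without IgG+Mino replicate 1), Per1, which light and cyclic AMP induce, stood at 271, 249.7 and 146 CPM in IgG, 281, 415 and 373 CPM in IgG+Mino, 321, 332 and 354 CPM in APB5 and 209, 247 and 206 CPM in APB5+Mino retinas. APB5+Mino overlapped IgG, APB5 overlapped IgG+Mino, and the interaction was −1.28 ± 0.30 (adjusted p = 0.132). In the 16 promoters of the immediate early list the cyclic AMP element occurred in 2 (12.5%), against 2.45% among tested genes. The share was similar in the nuclear respiratory chain (12%) and cytosolic ribosome (11.1%) lists, so it was not particular to immediate early genes.

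Stress response lists had smaller medians. For the integrated stress response, the program run by the transcription factor ATF4, 12 of 23 genes were lower and 1 higher at an unadjusted p of at most 0.05, with a median of −0.45 (−0.33 without APB5 replicate 3). Over all genes tested 9.08% were lower and 8.06% higher at that p. Cebpb, a transcription factor of both stress and inflammation, stood at 12.4, 17.6 and 26.4 CPM in IgG, 11.4, 17.1 and 21.4 CPM in IgG+Mino, 41.3, 24.3 and 99 CPM in APB5 and 5.61, 6.81 and 5.95 CPM in APB5+Mino retinas. APB5+Mino lay below all other libraries and APB5 replicate 2 overlapped IgG replicate 3 (interaction −2.99 ± 0.62, adjusted p = 0.124, and −2.27 without APB5 replicate 3). Ddit3, which encodes CHOP, stood at 83.1, 64.6 and 101 CPM in APB5 retinas, 46.4, 41.9 and 39.8 CPM in APB5+Mino and 52.9 to 76.8 CPM in the IgG-treated libraries (interaction −0.93 ± 0.24). The 1 higher gene was Lonp1, the mitochondrial protease, with 64.5, 66.3 and 63.2 CPM in APB5 retinas, 88.2, 82.9 and 86.8 CPM in APB5+Mino and 56.6 to 75.6 CPM in the IgG-treated libraries, so that APB5+Mino was highest with no overlap (interaction 0.55 ± 0.15). Heat shock genes had 5 of 18 lower (median −0.40), led by Bag3, a co-chaperone, at −2.48 ± 0.59 and Hspa5, the chaperone of the endoplasmic reticulum, at −0.96 ± 0.27. Cell cycle inhibitor and senescence genes had 9 of 17 lower and a median of −0.85 (−0.35 without APB5 replicate 3), with Gadd45b, a DNA damage gene, at −2.0 ± 0.44 and Cdkn1a, which encodes p21, at −2.22 ± 0.65 (−1.17 without APB5 replicate 3). The interaction passed the test without APB5 replicate 2 for Cebpb (−3.35), Ddit3 (−1.08), Bag3 (−2.86) and Gadd45b (−2.26) and without APB5 replicate 3 for Cebpb (−2.27). Hypoxia and glycolysis genes had 6 lower and 1 higher of 28, a median of −0.22 (−0.33 without APB5 replicate 2), and APB5+Mino lowest with no overlap for 8, among them Bnip3, a mitophagy receptor, at −0.55 ± 0.15. Over all genes tested APB5+Mino was lowest with no overlap for 8.75%.

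Cytosolic ribosome and nuclear respiratory chain genes had small values, most of them below 0. Of 75 cytosolic ribosomal protein genes 71 had an interaction below 0 and 7 an unadjusted p of at most 0.05, and the median was −0.34 (−0.19 without IgG+Mino replicate 1), with an APB5 arm of −0.54 and an IgG arm of −0.23. Those 7 are 9.33% of the list, near the 9.08% of all genes tested, while 52.1% of all members were below 0. APB5+Mino stood lowest with no overlap for 31 of them, against 8.75% of all genes tested. Of 36 nuclear genes of the respiratory chain 31 were below 0, 1 at that p (Sdhd, of complex II, at −0.35 ± 0.14), with a median of −0.28 (−0.13 without IgG+Mino replicate 1) and APB5+Mino lowest for 19. Mitochondrial ribosome genes had 33 of 60 below 0 and a median of −0.07, which turned to 0.09 without IgG+Mino replicate 1. For the 13 protein genes encoded in the mitochondrial genome 10 were below 0 and none had an unadjusted p of at most 0.05 in either direction with edgeR's quasi-likelihood test, and DESeq2 and voom called 0. Their median was −0.09, between −0.37 without IgG replicate 3 and 0.17 without APB5 replicate 1 and above 0 also without IgG replicate 1, IgG+Mino replicate 2 or IgG+Mino replicate 3, with medians of 0.31 in the APB5 arm and 0.66 in the IgG arm, where 10 were higher at an unadjusted p of at most 0.05, beside 4.28% of all genes tested. With Xist as a covariate the median interaction was 0.22, and sex and minocycline cannot be told apart in the IgG arm. ND2, of complex I, stood at 1616, 1833 and 2388 CPM in IgG, 2448, 3333 and 3467 CPM in IgG+Mino, 3035, 1918 and 1899 CPM in APB5 and 2860.0, 2880.0 and 2756 CPM in APB5+Mino retinas. IgG+Mino lay above IgG without overlap, the APB5 and APB5+Mino ranges overlapped, and the interaction was −0.35 ± 0.31 (adjusted p = 0.564), and −0.09 without APB5 replicate 1.

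Medians above 0 were found for regulators of chromatin and splicing and for cholesterol genes. Of 32 such regulators 27 were above 0 and 4 at an unadjusted p of at most 0.05, where 8.06% of all genes tested were, with a median of 0.36 (0.22 without APB5 replicate 3 and 0.57 without APB5 replicate 2), and APB5+Mino stood highest for 8. Over all genes tested APB5+Mino was highest with no overlap for 9.77%. Clk1, a kinase of splicing factors (chromosome 1, 58449348 to 58463234), stood at 145, 129.8 and 127 CPM in IgG, 131, 109 and 86.3 CPM in IgG+Mino, 108, 113 and 99.7 CPM in APB5 and 173, 167 and 186 CPM in APB5+Mino retinas. APB5+Mino lay above the other 9, with a change of 0.71 ± 0.14 in APB5 and −0.30 ± 0.14 in IgG retinas and an interaction of 1.01 ± 0.19 (adjusted p = 0.117). The splicing factor Rbm5 had 1.03 ± 0.23 and Luc7l3 0.74 ± 0.25. Since 2 of the 10 higher genes carried zinc finger names, the 399 tested genes with Zfp, Zkscan or Zscan names were counted as well, a set chosen after its values were seen. Of these 301 were above 0, 104 at an unadjusted p of at most 0.05 (26.1%, against 8.06% of all genes tested), with a median of 0.30 (0.15 without APB5 replicate 3), medians of 0.35 in the APB5 and 0.03 in the IgG arm, and APB5+Mino highest for 127, against 9.77% of all genes tested. Many such genes encode KRAB zinc finger repressors of transcription. Cholesterol synthesis and efflux genes went both ways, with 5 higher and 3 lower of 25 and a median of 0.50 (0.27 without APB5 replicate 3). The lower share, 12%, was near the 9.08% of all genes tested. The synthesis enzymes Lss and Sc5d had 0.85 ± 0.35 and 0.55 ± 0.21, and the exporter Abcg1 and its acceptor Apoe −0.61 ± 0.19 and −2.02 ± 0.62. Without APB5 replicate 3 the values were 0.53 for Lss, 0.35 for Sc5d and −0.99 for Apoe.

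**Figure D4:**
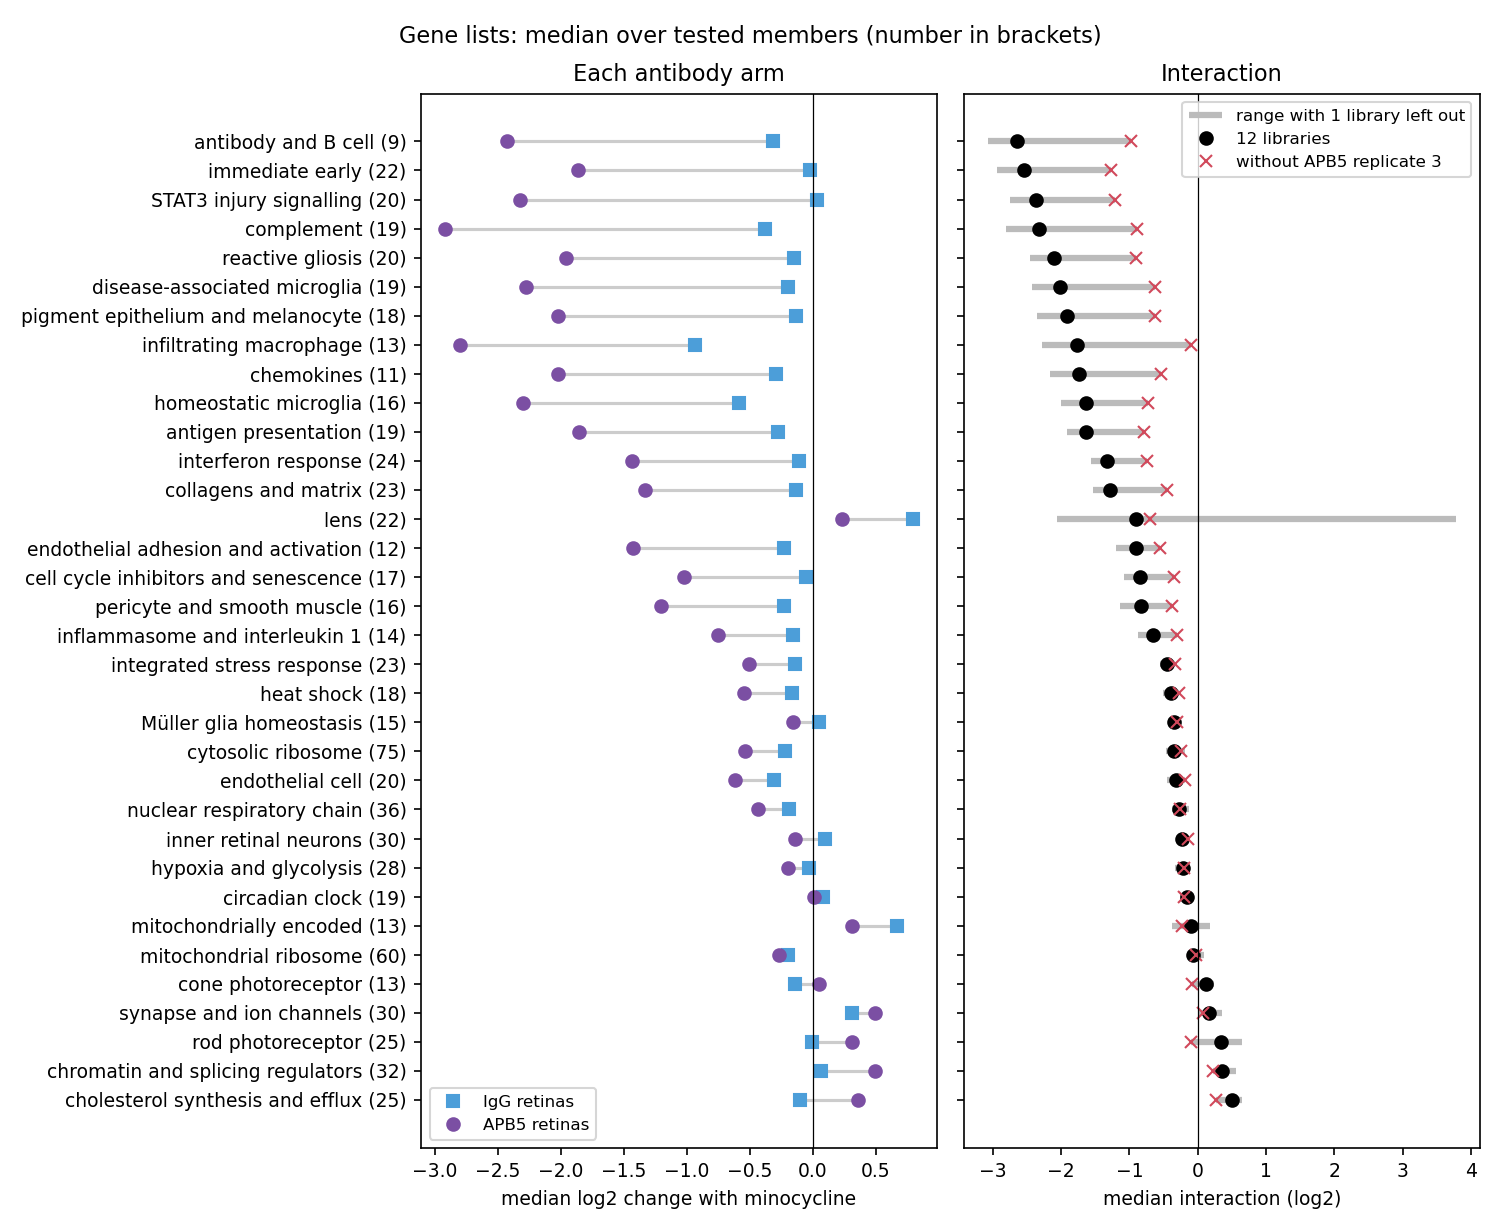
Left, median log2 change with minocycline over the tested genes of each list (number in brackets) in IgG (squares) and APB5 retinas (circles); right, median interaction over 12 libraries (dots), its range when each library was left out in turn (bars) and its value without APB5 replicate 3 (crosses). Immediate early, STAT3 injury and complement genes lie between −2.54 and −2.32, and without APB5 replicate 3 the immune and glial medians drawn move toward 0 and stay below it. The neutrophil and T cell, red blood cell and cornea lists, with at most 5 genes tested, are not drawn. The neutrophil and T cell median moves from −0.69 to 0.24 without APB5 replicate 3.

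Neuronal lists had medians between −0.23 and 0.34. Of 25 rod genes 24 were above 0 with a median of 0.34, which became −0.10 without APB5 replicate 3, and none had an unadjusted p of at most 0.05 in edgeR's quasi-likelihood test, while DESeq2 called 0 and voom 1. The median of 13 cone genes was 0.13 (−0.09 without APB5 replicate 3, and −0.09 without IgG replicate 3). Inner retinal neuron genes had 6 of 30 lower at that p, where 9.08% of all genes tested were, and a median of −0.23 (−0.14 without APB5 replicate 3), with the dopamine enzyme Th at −1.10 ± 0.42. Synapse and ion channel genes had 1 of 30 lower (3.33%, below the share of all genes tested) and a median of 0.16 (0.02 without IgG+Mino replicate 1 and 0.35 without IgG replicate 3). APB5+Mino stood highest for 8 of them, against 9.77% of all genes tested. Homeostatic genes of Müller glia had 4 of 15 lower and a median of −0.35. The water channel Aqp4, of their endfeet, stood at 48.1, 54.9 and 74 CPM in IgG, 57.8, 95.9 and 93.9 CPM in IgG+Mino, 80.7, 74.3 and 57.3 CPM in APB5 and 62.3, 67.1 and 60.5 CPM in APB5+Mino retinas, where all groups overlapped (interaction −0.64 ± 0.29).

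Genes of tissues beside the retina also differed between libraries. Pigment epithelium and melanocyte genes had 8 of 18 lower at an unadjusted p of at most 0.05 and a median of −1.91 (−0.62 without APB5 replicate 3). Their summed level was 663 to 695 CPM in IgG, 555 to 676 CPM in IgG+Mino, 575 to 1682 CPM in APB5 and 371 to 435 CPM in APB5+Mino retinas, and none of the defining markers Rpe65, Best1 and Ttr was at 0. Lens genes ranged from 12.2 to 2334 CPM in sum across libraries, and their median of −0.90 turned to 3.79 without IgG+Mino replicate 3. Red blood cell genes had a median of −0.51 over 5 genes and −1.51 without IgG replicate 3, and genes of cornea, conjunctiva and lacrimal tissue −0.97 over 5 and 0.64 without APB5 replicate 3. The part of these tissues in the interactions above was not tested.

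Read the other way, the interaction is the antibody effect with minocycline minus that without it. Without minocycline 7 members rose in APB5 retinas and 0 fell (0.033% and 0% of genes tested), namely Glycam1, Lad1, Fgf2os, Fgf2, 2900057B20Rik, C4b and 9330159M07Rik, the last of which was named after its value was seen. With minocycline edgeR's quasi-likelihood test called 0 members in each direction (0% and 0%), at a smallest adjusted p of 0.0712, while DESeq2 called 139 genes and voom 658, and 507 genes had an unadjusted p of at most 0.05 with a log2 value of at least 1 in size. The count without minocycline was 0 without IgG replicate 1, 2 without IgG replicate 2, 29 without APB5 replicate 1, 279 without APB5 replicate 2 and 34 without APB5 replicate 3, and that with minocycline 31 without IgG replicate 3, 3 without IgG+Mino replicate 1 and 159 without APB5 replicate 3. Sex was not balanced in either comparison. Xist was high in every IgG and no IgG+Mino library, and in replicate 3 alone of APB5 and of APB5+Mino. With Xist as a covariate 1035 members were called without and 0 with minocycline. Within groups, Xist differed mainly between replicate 3 and the other libraries of APB5 and of APB5+Mino. The slope of the covariate thus rested mostly on those libraries, the outlying APB5 replicate 3 among them. These counts therefore cannot be read as adjusted for sex. The antibody effect on Glycam1 was 4.32 ± 0.44 without and −2.63 ± 0.66 with minocycline, both on the log2 scale. The value with minocycline did not pass edgeR's quasi-likelihood test (adjusted p = 0.102). It rested on 2, 2 and 1 counts in APB5+Mino against 13, 11 and 10 in IgG+Mino retinas, so its size is uncertain. For Fgf2 it was 2.14 ± 0.22 without and 0.22 ± 0.21 with minocycline. For Sik1 and Ccno the antibody effect was larger in size with the drug and below 0, with 0.34 ± 0.16 and 0.83 ± 0.24 without and −0.95 ± 0.16 and −1.48 ± 0.25 with minocycline.

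**Figure D5:**
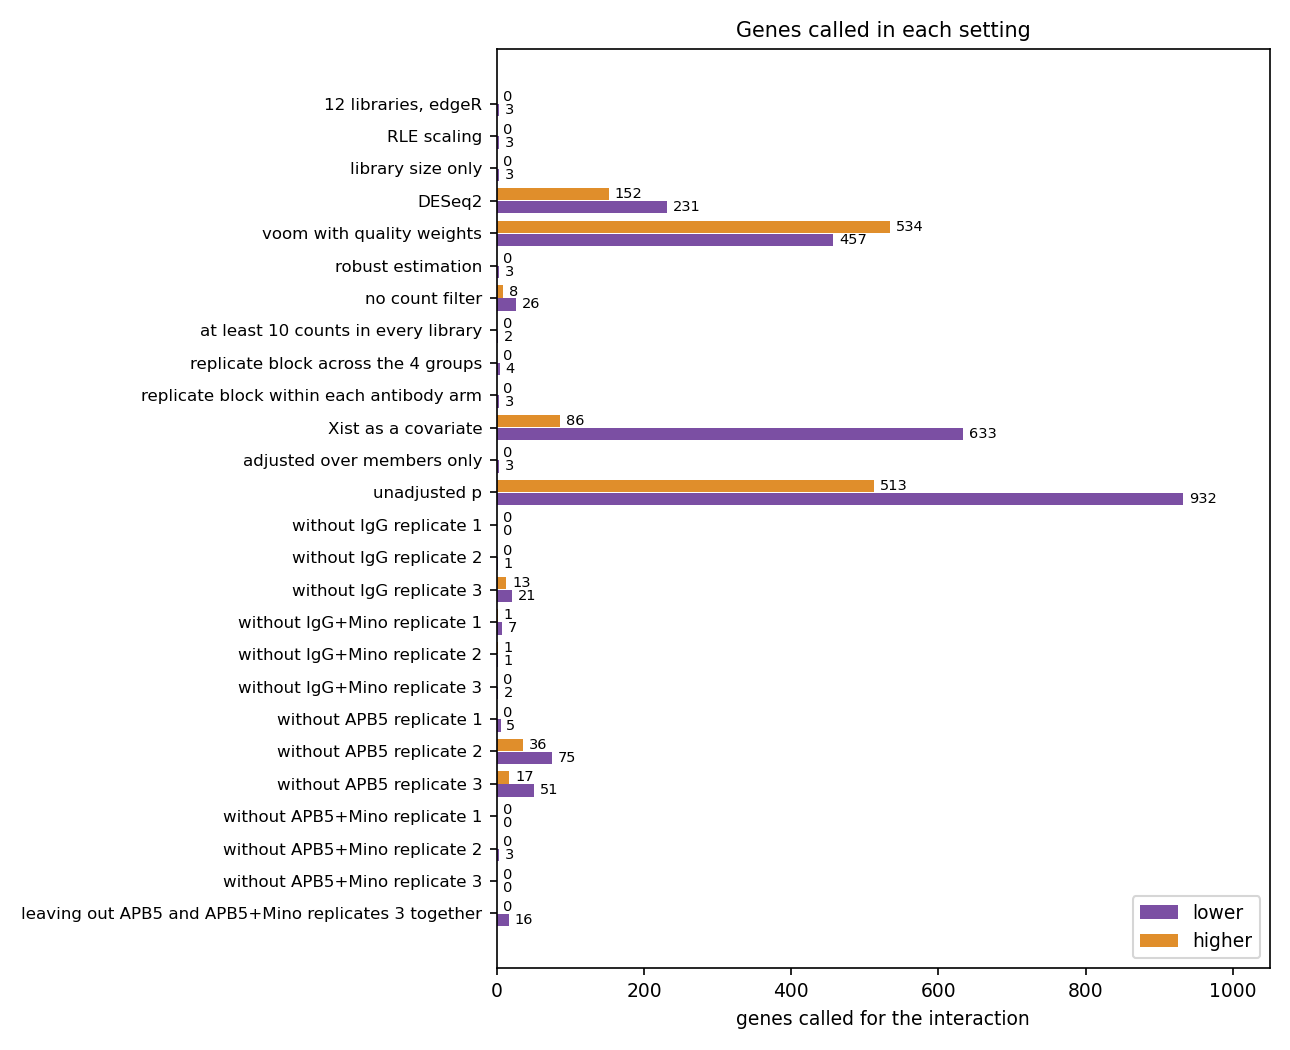
Number of genes called lower (purple) and higher (orange) for the interaction, on the x axis, in each setting of the analysis, listed on the y axis. The 12-library edgeR fit called 3, DESeq2 383, voom 991 and the fit with Xist as a covariate 719, and leaving out 1 library gave 0 to 111.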

How the data were processed

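Retinal RNA from 12 libraries, 3 for each of the 4 groups, was sequenced as stranded mRNA libraries. Per the labels, the authors made base calls with bcl2fastq 2.20 and aligned and counted reads with DRAGEN on mm39, and deposited raw counts per gene. The DRAGEN version and the use of strand in counting are not given in the sources used here. The 3 columns that repeat a library and the authors' own fold changes and p-values were not used. Groups and replicate numbers came from the labels. Counts were scaled by TMM, kept where enough libraries of 1 group had them (filterByExpr) and fitted with edgeR 4.0.16 (R 4.3.3) as 1 coefficient a group over all 12 libraries, with glmQLFit and glmQLFTest. Calls needed an adjusted p (Benjamini-Hochberg) no higher than 0.05 and a log2 value of at least 1 in size. Fold changes used a prior count of 0.125, and CPM used TMM-scaled totals. Alternatives were DESeq2 1.42.0, voom with quality weights (limma 3.58.1), other scalings and filters, replicate blocks, Xist as a covariate and leaving out libraries. Replicate numbers carry no meaning in the labels. Deviations from the group means correlated at 0.130 to 0.283 between same-numbered APB5 and APB5+Mino libraries, against −0.206 to 0.0450 between others, so the numbers paired these, and replicates 3 of both also shared high Xist. Between IgG and IgG+Mino they correlated at −0.236 to 0.117 and did not pair. Floors of 3 counts cover counting error only. Genes were placed on chromosomes by GENCODE vM39 (37878 autosomal and 2 mitochondrial) or RefSeq symbols, with 1506 unmatched. The text names the 10 genes with the smallest p in each direction at a mean of at least 1 CPM, up to 4 genes with the smallest p in each of 37 lists, and genes named by the study. The members and lists were chosen with earlier results of these data known.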

Additional observations from a re-analysis of the deposited data

Results flagged for a closer look

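In 3 genes the change with minocycline differed between IgG and APB5 retinas by a test of the difference itself, edgeR's quasi-likelihood test of the interaction with Benjamini-Hochberg adjustment. The difference was −6.94 ± 0.76 on the log2 scale for Glycam1, −2.84 ± 0.35 for Lad1 and −5.53 ± 0.69 for Fgf2os. With the replicate block within each antibody arm the adjusted p of Fgf2os was 0.0962 and the other two passed. None of the 3 passed when IgG replicate 1, APB5+Mino replicate 1 or APB5+Mino replicate 3 was left out. Sex and minocycline cannot be told apart in the IgG arm, which is part of this difference. In all 3 the APB5 libraries lay above the other 9. Groups of 3 libraries are too small for a test of single outlying libraries.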

How the results depend on the processing

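The 3 calls were kept with RLE or library-size scaling, robust estimation and adjustment over autosomal and mitochondrial genes alone, and Glycam1 was not tested at a minimum of 10 counts in every library, where 2 genes were called. Genes called for the interaction and genes past the adjusted p numbered 383 and 698 with DESeq2, 991 and 3024 with voom, 34 and 34 with no count filter, 719 and 751 with Xist as a covariate, 1445 and 3488 at an unadjusted p, and 16 and 17 without APB5 and APB5+Mino replicates 3. Leaving out 1 library gave 0 to 111 calls and 0 to 123 genes past the adjusted p. For minocycline in APB5 retinas (1555 called), leaving out 1 library gave 121 to 2616 and leaving out both replicates 3 gave 286. For minocycline in IgG retinas (0 called), DESeq2 gave 16, voom 144, no filter 1, unadjusted p 190, both replicates 3 left out 1, and 1 library left out 0 to 1. For the antibody without minocycline (7 called), the values were 289, 74, 157, 1060, 27 and 0 to 279 in the same order, and 1035 with Xist as a covariate. For the antibody with minocycline (0 called), DESeq2 gave 139, voom 658, no filter 17, unadjusted p 507, and 1 library left out 0 to 159. APB5 stood apart in 734 genes and in 771 to 2140 with 1 library left out, and APB5+Mino in 3751 and in 3781 to 5903. Fewer libraries stand in the way of standing apart when 1 is left out. The fit with Xist as a covariate took its slope mostly from APB5 and APB5+Mino libraries, the outlying APB5 replicate 3 among them. Its counts cannot be read as adjusted for sex. The cause of the other changes was not tested.

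The replicate numbers paired APB5 with APB5+Mino libraries but not the other groups that were compared. A replicate block across the 4 groups called 4 genes for the interaction and 3 for the antibody with minocycline. A block within each antibody arm called 3 for the interaction, with Fgf2os at an adjusted p of 0.0962, and 1155 for minocycline in APB5 retinas. It changed no other call named for the interaction, and the minocycline effects on Fgf2, Cx3cr1, Cldn5 and Nr4a3 in APB5 retinas passed with it. This block lies within the antibody groups, so the antibody effect could not be fitted with it.

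Medians kept their sign under every alternative run except those of the rod, cone, mitochondrial ribosome, mitochondrially encoded, lens, red blood cell, cornea and neutrophil and T cell lists. With 3 libraries a group, 1 of them far from the rest, the precision rested on few libraries.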
